A study of Arabidopsis thaliana with 6 samples.

Results

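The genes described here are 70 Arabidopsis thaliana genes that 1 array of old seed pods showed much more brightly than both of its sister arrays. They were chosen from 11933 probe sets that the platform annotation names with 1 nuclear gene by locus tag and no symbol. A member had a deposited signal of at least 200 on the array of old replicate 1, and at least 4 times the signal of old replicate 2 and of old replicate 3. Each member is a different gene with 1 probe set, and the array holds 22746 probe sets apart from its controls. The old arrays therefore chose the members, and their signals there are a description with no test. The young arrays took no part in the choice.

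The study compared siliques, the seed pods of the plant, at a young and at an old age on 6 Affymetrix ATH1 arrays, 3 per age. Col-1 plants were used throughout, and they grew on compost in a glasshouse at 19 °C with light for 24 hours a day. The labels give every sample the same tissue and stage, and only the titles call a pod young or old. Nothing in the labels says that replicates came from separate plants, or how pods of 1 age were picked.

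A whole pod holds valves, a dehiscence zone and seeds, and each seed holds an embryo, an endosperm and a coat. Late in maturation the embryo fills with storage proteins and with oil bodies coated by oleosins. It then makes late embryogenesis abundant (LEA) proteins, very hydrophilic proteins that accumulate as the seed dries. Abscisic acid and the transcription factors around ABI3 and ABI5 drive much of this programme. In an array of a whole pod, fewer cells of a type and less RNA per cell cannot be told apart.

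Neither the platform annotation nor the reference gene table gives these 70 genes more than a locus tag. The gene families named below are general knowledge of the Arabidopsis genome and serve as background. No family is given where it was not certain. Whether the members are late seed genes was read from 4 lists of such genes: LEA proteins and dehydrins, seed storage proteins, oil body proteins and other late seed genes. The lists hold 102 loci together.

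Of the 70 members, 12 (17.1%) stood on a late seed list, while 33 of the 11933 locus-tag probe sets (0.277%) did. Of the 1257 locus-tag probe sets with a signal of at least 200 on old replicate 1, 15 (1.19%) were on these lists, and 12 of those 15 were members. The other 3 were AT1G54410, AT2G23120 and AT2G44060 of the LEA list, named after their values were seen. AT1G54410 had 2808, 2488 and 1994 on old replicates 1, 2 and 3. The 12 listed members had a median signal of 1877 on old replicate 1, against 569 for the other 58. By deposited signal there, 5 of the 10 brightest members were listed, as were 9 of the brightest 35 and 3 of the dimmest 35. Probe sets bind with different strength, so this order is one of signals and not of transcript levels. The rule chose members on this same signal, and the lists were chosen with earlier results of these data known. The order and the shares are therefore only a description. The remaining 58 members were on none of the lists, so for them the lists give no answer in either direction.

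**Figure D1:**
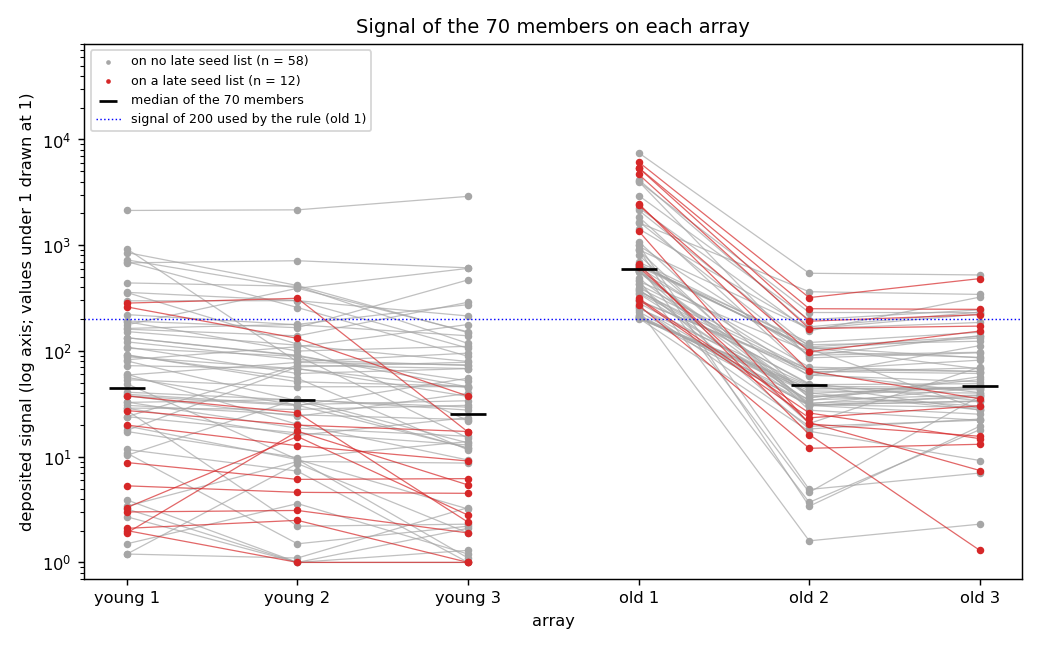
Deposited signal (vertical, log axis) of each member on the 6 arrays (horizontal), with 1 line per member within each age and a bar at the median of the 70. The median was 597 on old replicate 1 and 25.5 to 47.7 on the other arrays, and the 12 members on late seed lists (red) lie low on most young arrays.

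Beside the members, the arrays themselves differed. The trimmed mean signal was 100 on every array, since each had been scaled to 1 target before deposit. The hybridisation controls, bacterial and phage transcripts added in known amounts, had a geometric mean of 998 on old replicate 1 and of 341 and 301 on old replicates 2 and 3. On the young arrays it was 871, 389 and 263, so that both arrays with replicate number 1 stood high. The 25S ribosomal RNA control read 7306, 171 and 2071 on the old arrays and 5114.5, 117.5 and 271.7 on the young ones. The log2 ratio of 3 prime to 5 prime signal, which rises as RNA degrades, was read from 3 controls. For GAPDH it was 3.60, 3.75 and 1.91 on the old arrays, and 3.98, 2.56 and 2.63 on the young arrays. For ubiquitin it was 2.59, 1.96 and 1.24 on the old arrays, and 2.27, 1.74 and 1.90 on the young arrays. For actin it was 3.40, 3.79 and 3.41 on the old arrays, and 3.19, 3.09 and 3.05 on the young arrays. With arrays scaled on the hybridisation controls, 23 of the 70 members still met the rule, 8 of the 12 on late seed lists among them. The part of these array differences in the result was not tested.

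Only 0.587% of the locus-tag probe sets met the rule, or 5.57% of those with a signal of at least 200 on old replicate 1. With each array in turn put in the place of old replicate 1, the number of probe sets of any naming was 161 for old replicate 1, none for old replicate 2 and 7 for old replicate 3. It was 7, 1 and 15 for young replicates 1, 2 and 3. Scaled on the hybridisation controls, the count was 47 for old replicate 1 and 70 for young replicate 3. In the opposite direction, 1 probe set was at least 4 times dimmer on old replicate 1 than on both other old arrays with at least 200 on each. This count of dim probe sets was 0 for old replicates 2 and 3. It was 26, 0 and 19 for young replicates 1, 2 and 3. The members held 2.71% of all signal on old replicate 1, 0.194% and 0.223% on old replicates 2 and 3, and 0.263% to 0.365% on the young arrays.

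**Figure D2:**
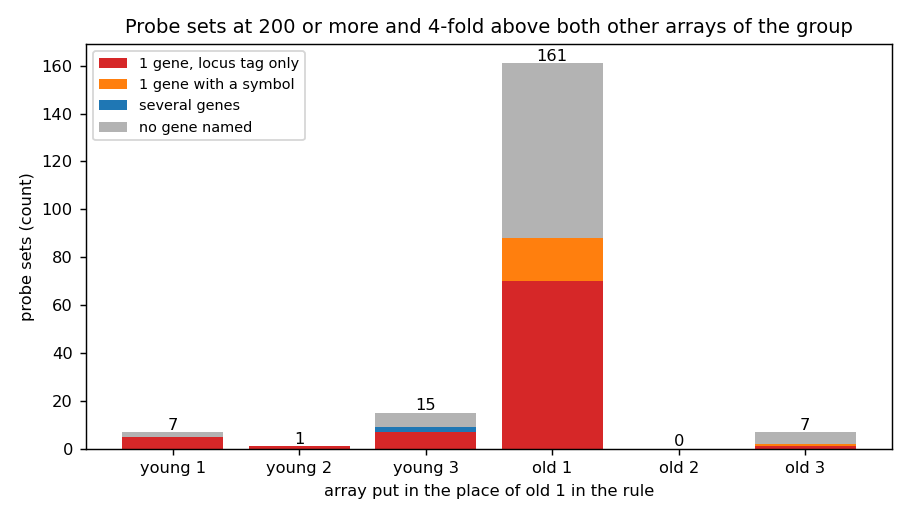
Number of probe sets (bars from 0, stacked by how the annotation names them) with at least 200 on the array given and 4 times the signal of both other arrays of the same age. Old replicate 1 has 161, of which 70 are the members, and no other array has more than 15.

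The 3 members of the storage protein list were among the brightest. AT2G28490, a cupin of the vicilin type, had signals of 1.9, 17.4 and 5.4 on young replicates 1, 2 and 3 and of 5412, 251 and 247 on old replicates 1, 2 and 3, the order kept for all values that follow. AT1G03890, a relative of the cruciferin globulins, had 8.8, 6.1 and 6.2 in young pods and 5380, 191 and 220 in old pods. For both, all 3 young arrays were under the 40th percentile of their array, the level taken here as background, while old replicates 2 and 3 stood above every young array. AT4G36700, another vicilin-like cupin, had 283, 315 and 17.1 in young pods and 2392, 98.2 and 154 in old pods. Its young signal was thus measurable on 2 of the 3 arrays, and old replicates 2 and 3 lay between them and the third.

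Oleosins, which coat oil bodies and keep them from fusing, gave 3 members. AT3G01570 was the second brightest member of all, with 261, 132 and 37.4 in young pods and 6123, 319 and 483 in old pods. AT3G18570 had 37.5, 26.0 and 2.4 in young pods and 306, 23.3 and 30.3 in old pods. AT2G25890 had 3.3, 15.5 and 2.8 in young pods and 271, 12 and 13.1 in old pods, with only old replicate 1 above background. On all 3 genes the lowest young signal was that of young replicate 3. OLEO3, an oleosin with a symbol and so no member, met the same signal rule with 1099, 536 and 158 in young pods and 2219, 179 and 263 in old pods.

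The 4 members of the LEA list lay near the bottom of the scale in young pods. AT3G02480 had 19.9, 12.7 and 9.1 in young pods and 2472, 64.3 and 35.3 in old pods. AT3G15670 had 2.1, 2.5 and 0.9 in young pods and 663, 16.2 and 1.3 in old pods. AT4G21020 had 3.0, 3.1 and 1.9 in young pods and 625, 21.0 and 7.4 in old pods. AT3G17520 had 2.0, 0.9 and 0.7 in young pods and 315, 25.9 and 14.8 in old pods. All 4 were under background on every young array. For AT3G15670 and AT4G21020 old replicates 2 and 3 were under it too, so old replicate 1 was at least 26.8-fold and at least 25.2-fold brighter than their mean. Such a bound is the log2 signal of old replicate 1 less the mean of old replicates 2 and 3, each raised to its array's 40th percentile where it lay under it.

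The last 2 listed members were AT1G04560, of the AWPM-19-like membrane proteins, and AT5G45690, of the DUF1264 family. AT1G04560 had 27.3, 19.9 and 17.3 in young pods and 4683, 163 and 172 in old pods. AT5G45690 had 5.3, 4.6 and 4.5 in young pods and 1361, 20.4 and 15.6 in old pods, at least 55.0-fold brighter on old replicate 1. Old replicate 1 was set against the mean of the other old arrays, each raised to its 40th percentile where under it. Over the 12 listed members this ratio ran from 10.9 to 55.0, with a median of 23.5, and for 4 of them both other arrays were raised. Over the other 58 members it ran from 4.48 to 44.1, with a median of 8.54, and for 7 both were raised. The ratio is a lower bound for these, and also for members with only 1 of the other arrays raised. These ratios come from the arrays that chose the members and are given without a test.

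The lists can also be read whole, with the genes that carry symbols. Of their 102 loci 48 had a probe set that names 1 gene, and 17 met the signal rule, the 12 members and 5 genes with a symbol. Old replicate 1 was at least 2-fold above both other old arrays for 31 of the 48 and at least 2-fold below both for 1, where 14.2% and 5.02% of all probe sets were. Of the 31, 25 were above background on old replicate 1, where 5.73% of all probe sets met both conditions, and 6 were under it. All 5 storage protein genes, all 4 oil body genes and all 4 other late seed genes with a probe set were at least 2-fold above and above background. These 3 lists hold 13, 14 and 24 loci, so most of their loci could not be read here. The LEA list was mixed, with 18 of 35 at least 2-fold above, 12 of these above background on old replicate 1. The 6 under background were all LEA genes. The 1 gene at least 2-fold below was AT5G27980, of the seed maturation protein type, named after its values were seen, at 1.8, 12.9 and 28.6 on the old arrays. Summed over the 5 storage genes the signal was 16967, 775 and 848 in old pods and 341, 370 and 62.5 in young pods. Summed over the 4 oil body genes it was 8918, 533 and 789 in old pods and 1401, 709 and 201 in young pods.

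Other tissues of the pod were read from lists that hold few or no locus-tag genes, so members could hardly appear on them, and none did. A heat shock list, not of a tissue, had 4 genes with a probe set, 3 by locus tag, and no member. On old replicate 1, 0 of these 4 were at least 2-fold above both other old arrays and 1 was below. Their median signals on the old arrays were 8.2, 13.2 and 6.4, all under background. The 1 endosperm gene with a probe set had 23.7, 11.9 and 13.0 there, also under it. The 5 seed coat genes summed to 682, 366 and 512 on the old arrays and to 7825, 6784 and 9836 on the young ones. Of these, 4 were at least 2-fold above both other old arrays on old replicate 1. AT3G50990 of the 4, named after its values were seen, had 16.5, 2.6 and 3.4 on the old arrays, all under background. On the young arrays it had 762, 385 and 13.2. The rest of the 4 were far below every young array. BAN, the anthocyanidin reductase of the seed coat, had 46.8, 8.2 and 10.7 on the old arrays and 1657, 1289 and 2715 on the young ones. The part of seed coat RNA in the members' signals was not tested. The 4 photosynthesis genes summed to 6284, 6535 and 5983 on the old arrays. The 4 senescence genes summed to 713, 647 and 792 there, with genes that went opposite ways and are named after their values were seen. SAG29, a sugar transporter gene of senescing leaves, had 332, 81.9 and 107 on the old arrays, and WRKY6, a transcription factor, had 57.9, 162 and 171. The 2 valve margin genes summed to 1620, 1771 and 1422. No gene of these lists was at 0 on any array. ADPG1, the polygalacturonase of the dehiscence zone, had 1208, 1248 and 901 on the old arrays and 76.7, 102 and 45.1 on the young ones. ALC, the other gene of that list and a transcription factor of the valve margin, had 412, 522 and 521 on the old arrays and 786, 486 and 484 on the young ones.

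**Figure D3:**
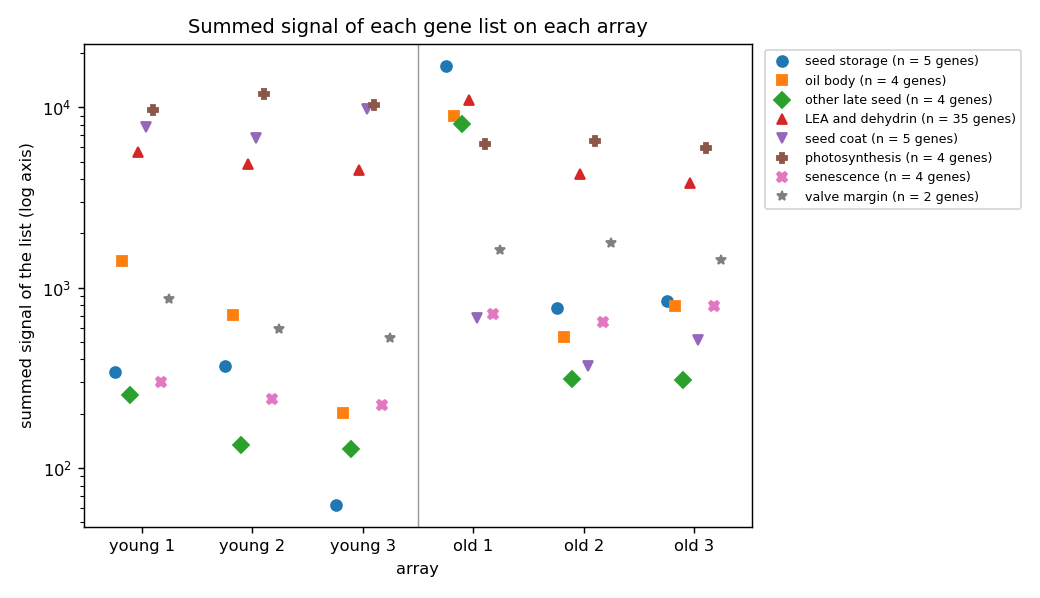
Summed signal (vertical, log axis) of 8 gene lists on each array, 1 point per list and array, with the number of genes in the key. The storage list reads 16967 on old replicate 1 and 775 and 848 on the other old arrays, while the photosynthesis list reads 6284, 6535 and 5983.

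Several of the brightest members belong to families of small secreted proteins. AT1G47540, a knottin of the defensin and trypsin inhibitor type, was the brightest member, with 357, 116 and 21.9 in young pods and 7488, 543 and 523 in old pods. Its signals on old replicates 2 and 3 were also the highest of any member there. AT2G15010, a thionin, had 10.8, 1.5 and 2.2 in young pods, all under background, and 1860, 62.8 and 40.3 in old pods. AT1G62500, of the lipid transfer and seed albumin superfamily, had 60.3, 20.2 and 9.3 in young pods and 1431, 162 and 224 in old pods. PDF2.1, a plant defensin with a symbol, also met the signal rule, with 2693, 73.6 and 84.4 on the old arrays.

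A pair of neighbouring genes, AT1G14950 and AT1G14940, encode proteins like the major latex proteins and both were members. AT1G14950 had 32.6, 34.8 and 27.6 in young pods and 4013, 86.1 and 96.0 in old pods. AT1G14940 had 3.2, 0.9 and 2.1 in young pods and 246, 1.6 and 2.3 in old pods, at least 9.92-fold brighter on old replicate 1. No coding gene lies between them in the reference table. Probes of close relatives can share signal, and whether these do was not tested. Elsewhere AT2G38900 and AT2G38905 were also direct neighbours, with AT2G38870 2 coding genes away. The 69 members annotated as coding genes on a nuclear chromosome lay on all of chromosomes 1 to 5, with 22, 13, 14, 7 and 13 members.

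Proteases of the vacuole type were represented by AT1G62290, an aspartic protease, and AT3G54940, a papain-like cysteine protease. AT1G62290 had 133, 89.9 and 15 in young pods and 2952, 198 and 245 in old pods. AT3G54940 had 90.8, 55.1 and 11.6 in young pods and 1082, 36.0 and 53.7 in old pods. For both genes young replicate 3 was the lowest of the young arrays. BETA-VPE, the vacuolar processing enzyme that matures seed storage proteins, carries a symbol and met the signal rule with 869, 84.4 and 80.0 on the old arrays.

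Genes of the cell wall and cell surface gave 9 members. AT5G59170, a proline-rich extensin-like gene, had 699, 258 and 88.9 in young pods and 4002, 231 and 230 in old pods. AT2G34700, of the Ole e 1 allergen and extensin family, had 726, 392 and 152 in young pods and 1672, 90.3 and 140 in old pods. AT3G60730, of the pectin methylesterase inhibitor superfamily, had 3.9, 1.0 and 1.0 in young pods and 997, 4.9 and 7.0 in old pods. Old replicates 2 and 3 were both under background, so old replicate 1 was at least 40.3-fold brighter. AT1G04660, a glycine-rich protein gene, had 358, 300 and 106 in young pods and 640, 4.6 and 37.3 in old pods. Among genes of redox chemistry, AT3G56350, a manganese superoxide dismutase relative, had 17.3, 9.8 and 13.9 in young pods and 920, 3.4 and 19.4 in old pods, at least 37.2-fold brighter on old replicate 1.

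Some bright members are named here by locus only. AT3G63040 had 80.4, 33.8 and 12 in young pods and 4171, 169 and 233 in old pods. AT3G62730 had 163, 178 and 274 in young pods and 2266, 155 and 323 in old pods, with the other 5 arrays overlapping between the ages. AT1G54860 had 11.7, 7.3 and 0.9 in young pods and 2143, 109 and 137 in old pods. AT5G55620 had 440, 409 and 118 in young pods and 1635, 363 and 343 in old pods. AT4G31830 had 2.7, 0.7 and 1.3 in young pods and 894, 27.5 and 22.1 in old pods.

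The members fell into different patterns against the young arrays. All 3 young arrays were under background for 26 members, 9 of them on late seed lists, and for 10 of the 26 old replicates 2 and 3 were under it as well. Old replicates 2 and 3 both stood above every young array for 30 of the 70 members (17.1% of all probe sets), of which 8 were on the late seed lists. They both stood below every young array for 18 (32.5% of all probe sets), of which none was on those lists. The rule set a ceiling on old replicates 2 and 3, so these counts are descriptions. Old replicate 1 exceeded every young array for 63 members and by at least 4-fold for 51. The rule chose members for a high signal on old replicate 1, so no age difference is read from these counts. Shares of all probe sets were not counted for them, nor for the 26 members under background on every young array.

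For the other 7 members at least 1 young array was brighter than old replicate 1. AT2G38900, a protease inhibitor of the potato inhibitor I family, had 2131, 2160 and 2898 in young pods and 806, 30.5 and 25.2 in old pods. It was the brightest member in young pods, and old replicate 1 lay between the young arrays and the other old arrays. AT2G38870, of the same family and nearby, had 853, 416 and 149 in young pods and 571, 20.6 and 70.3 in old pods. AT5G38195, of the lipid transfer superfamily, had 681, 713 and 611 in young pods and 569, 70.4 and 63.9 in old pods. AT3G62960, a glutaredoxin, had 923, 78.8 and 95.3 in young pods and 296, 67.1 and 63.9 in old pods. AT2G41990 had 192, 166 and 470 in young pods and 209, 40.1 and 27.7 in old pods. The same held for AT1G71691, an esterase of the GDSL type, and AT2G28790, a thaumatin-like gene named after its values were seen. AT2G05790, a glycosyl hydrolase of family 17, lay just on the other side, with 177, 392 and 604 in young pods and 623, 58.1 and 112 in old pods. Members of this kind were on no late seed list.

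Young replicate 1, which shares its replicate number with old replicate 1, was set beside young replicates 2 and 3. The median member signal was 44.8, 34.6 and 25.5 on young replicates 1, 2 and 3. Young replicate 1 was the highest of the 3 for 45 members (64.3%), where it was for 43.9% of all probe sets. Young replicate 3 was the lowest for 40 (57.1%, against 32.5% of all probe sets), and for 10 of the 12 on late seed lists. Of those 12, 9 were under background on all 3 young arrays, so the order among them is mostly one of background signals. With 1 array against 2 there is no replicate, and an exact permutation test cannot pass any usual threshold, so no p is given.

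By the size of the difference, 13 of the 70 members (18.6%) were at least 2-fold brighter on young replicate 1 than on both other young arrays, against 6.88% of all probe sets. At least 2-fold dimmer were 5 (7.14%, against 5.70%). Against young replicate 3 alone 28 members were at least 2-fold brighter, where 12.9% of all probe sets were, and against young replicate 2 alone 14, where 11.9% were. Many of these signals were at background. With signals raised to the 40th percentile 5 members were brighter and 1 was dimmer, against 0.787% and 1.08% of all probe sets. Among the 25 members with at least 100 on a young array, 4 were at least 2-fold brighter and 1 was dimmer, against 1.64% and 3.04% of all probe sets with such a signal. Young replicate 1 was the highest for 16 of the 25, against 37.6%, and young replicate 3 the lowest for 16, against 32.9%. The median log2 difference of young replicate 1 from the mean of the other 2 was 0.61 over the members and 0.09 over all probe sets. Among those with at least 100 on a young array it was 0.76 and -0.01. Scaling on the hybridisation controls moved all probe sets down together, to -0.84 for the members and -1.35 for all. With signals raised to the percentile both medians were 0.14. That is the value of any probe set raised on all 3 young arrays, whose percentiles were 36.5, 32.5 and 33.7. These 2 medians therefore cannot compare the members with all probe sets.

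The 10 members with the largest such ratio and at least 100 on a young array included several named above. AT3G62960 was 10.6 times as bright on young replicate 1 as on the mean of young replicates 2 and 3, AT1G47540 5.18 times and AT5G59170 4.04 times. The oleosin gene AT3G01570 was at 3.09, the protease inhibitor gene AT2G38870 at 3.02, AT2G34700 at 2.67 and the aspartic protease gene AT1G62290 at 2.54. The smallest 3 of the 10 were AT1G11170 at 1.95, the glycosyltransferase family member AT4G32290 at 1.80 and AT1G04660 at 1.77. OLEO3, with a symbol, was at 3.16. Among the members with at least 100 on a young array, the lowest ratios were 0.35 for AT2G05790, 0.58 for the hydrolase family member AT1G17430, 0.60 for AT2G41990, 0.72 for AT3G62730 and 0.75 for the cupredoxin AT3G27200. The spread between young replicates 2 and 3 was itself large for several of the first group, with 116 and 21.9 for AT1G47540 and 258 and 88.9 for AT5G59170.

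**Figure D4:**
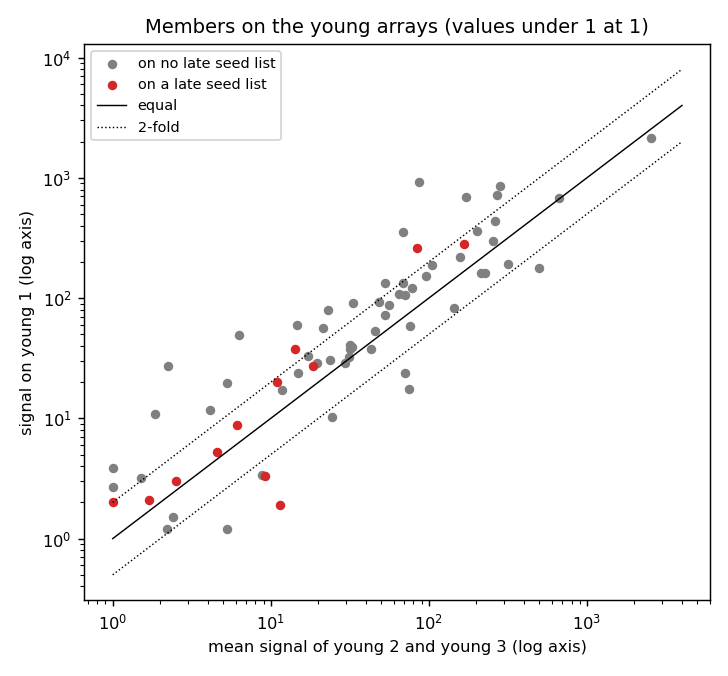
Signal of each member on young replicate 1 (vertical) against its mean on young replicates 2 and 3 (horizontal), both on log axes, with lines at equality and at 2-fold. Young replicate 1 was the highest young array for 45 of the 70 members, and the listed members (red) lie mostly at low signals.

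Old pods were compared with young pods by limma over the 14277 probe sets above the 40th percentile on at least 3 arrays, with Benjamini-Hochberg adjustment and a threshold of 0.05. Of the members 58 entered this fit, and the 12 left out were bright on too few arrays. Among the 58, 12 were higher and 1 lower in old pods, where 9.68% and 12.3% of all tested probe sets were. With the replicate number as a block 18 were higher and 2 lower, where 10.6% and 13.8% of all tested were. The rule used the old arrays, so nothing is read from these counts, and no member's own test is given. Without old replicate 1, 15 of the 58 were higher and 11 lower (10.3% and 14.9% of all tested). The count of higher members was 6 without young replicate 2 and 6 without young replicate 3, where 6.16% and 6.50% of all tested were higher and 6.53% and 7.33% lower. None was lower without young replicate 2, young replicate 3, old replicate 2 or old replicate 3. Of all 14277 tested, 1016 were lower without old replicate 2 and 1192 without old replicate 3. Centring arrays on their medians moved the median log2 difference of all tested probe sets from -0.08 to 0.18. It changed the calls over all probe sets from 1382 higher and 1763 lower to 1890 and 1138.

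Close to the ratio of 4 that bounds the set, the members just inside were AT1G11170 at 4.29, AT1G71691 at 4.40, AT3G62960 at 4.41, AT5G55620 at 4.50 and AT4G29020, a glycine-rich protein gene, at 4.51. Just outside were AT5G59845 at 3.99, AT1G20380 at 3.90, AT4G17790 at 3.78, AT4G13840 at 3.53 and AT4G02360 at 3.33. AT5G59845 had 2770, 1369 and 624 in young pods and 397, 70.5 and 99.5 in old pods, a pattern like that of AT2G38900.

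Probe sets outside the set met the same signal rule. They were 18 that name 1 gene with a symbol and 73 that the annotation leaves without a gene. Of the 18, PAP85, OLEO3, BETA-VPE, the dehydrin gene with the symbol LEA (AT2G21490) and ATOEP16-2, of a family of plastid envelope transporters, stood on the late seed lists. PAP85, a vicilin-like storage protein, had 25.9, 14.9 and 15.8 in young pods and 3701, 215 and 210 in old pods. The LEA gene had 1144, 22.2 and 30.9 in old pods and ATOEP16-2 had 1123, 43.6 and 41.0. EEL, a bZIP transcription factor of the ABI5 group that acts in seeds, had 339, 20.8 and 34.8 in old pods. MSRB6, a methionine sulfoxide reductase, had 718, 31.3 and 29.6 in old pods, and EXPA15, an expansin, had 662, 69.8 and 99.4. BGLU19, a beta-glucosidase, had 436, 3.9 and 2.3. Some of the 18 were instead as bright or brighter in young pods, among them MGL, a methionine gamma-lyase, with 391, 246 and 303 in young pods and 276, 29.7 and 38.2 in old pods.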

How the data were processed

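RNA of 3 young-pod and 3 old-pod samples was measured on 1 array each. The authors deposited an intensity for each probe set, on a linear scale. MAS5 made it, per the submitters' processing notes, in a version not given in the sources used here. Signals were used as deposited, and as log2 with those under 0.1 set to 0.1. A signal under the 40th percentile of its array was taken as background. A list gene with several probe sets was read from the brightest by mean log2 signal. The ages were compared in R 4.3.3 by limma 3.58.1 (two-sided, eBayes with a variance trend), and the code was tested on simulated data. Other values were computed in Python 3.11.15.

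Symbols and neighbours come from the platform annotation and the TAIR10.1 gene table, which held all 70 members by gene number. The members and the gene lists were chosen with earlier results of these data known. Genes named were those on a list, the 20 brightest on old replicate 1, the 10 highest ratios there, the 10 highest and 5 lowest ratios of young replicate 1, the 5 on each side of the ratio of 4, the 5 brightest in young pods and the genes with a symbol. Family groups were made after membership was known.

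Same-numbered young and old arrays were checked for shared deviations from their group means, which had correlations of 0.286, 0.113 and 0.119 for numbers 1, 2 and 3. All were over 0.1, so a fit with the replicate number as a block is given beside the main fit. The main fit and the fits with an array left out use no block and ignore this pairing. The alternatives tried were other scalings, thresholds, filters and left-out arrays. The number of arrays limits the precision, and p-values measure only the spread between these samples. Promoter motifs and protein features were planned and not analysed here.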

Additional observations from a re-analysis of the deposited data

How the results depend on the processing

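The number of members was 58 to 78 with a ratio of 3, with median centring, quantile normalization or low signals raised to the 40th percentile, and 76 or 77 without old replicate 2 or 3. It was 40 with a ratio of 8, 108 with a signal of 100, 45 with a signal of 400 and 23 with scaling on the hybridisation controls. The count brighter on young replicate 1 was 24 at 1.5-fold, 4 at 4-fold, 3 with control scaling, 5 with raised signals, and 14 to 28 with a young array left out. The count dimmer there was 0 at 4-fold, 19 with control scaling, 1 with raised signals, and 8 to 9 with an array left out. The median log2 difference of 0.61 reversed to -0.84 with control scaling, which shifts each array by 1 factor, and was 0.40 to 0.71 with an array left out. Under control scaling 3 of the 15 named members changed sign, AT1G11170 to -0.40, AT1G04660 to -0.44 and AT4G32290 to -0.60. Over 15 members and 4 alternatives, 49 of 60 such values stayed within 1 SD of the young arrays. That SD includes young replicate 1, so it grows with the difference itself. Raising low signals leaves a member unchanged where all young signals were above background. The count is therefore no measure of stability. All probe sets called between ages were 3145, 3480 with the replicate block, 607 with control scaling and 1736 to 3602 with an array left out. Of the 58 members tested, those called higher were 18 with the block, 19 in replicates 2 and 3 alone and 6 to 15 with an array left out. Of all 14277 tested, 1516, 1662 and 720 to 1473 were called higher. Members called lower were 2 with the block, 11 in replicates 2 and 3 alone and 0 to 11 with an array left out. Of all tested, 1964, 2274 and 932 to 2129 were called lower. The median log2 difference of old replicate 1 from the other old arrays over the late seed lists was 2.61, and 1.92 after quantile normalization. Where no construction is given, the cause was not tested. Signals near background limit the young comparisons.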
